A study of Caenorhabditis elegans with 2 samples.

Results

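The zfp-1 and ztf-1 locus of Caenorhabditis elegans was described here in a ChIP-seq profile of UNC-62 from L1 larvae. ChIP-seq sequences the DNA recovered with a protein, in this case a tagged transcription factor. The members were the pooled entries of the ce11 build that overlapped a window from 5 kb outside either gene by at least 1 bp (chromosome III, 8782092 to 8811305), and there were 19 of 30000. Of these, 3 belonged to the list of 119 peaks thresholded by the irreproducible discovery rate (IDR), a procedure that compares peak ranks between replicates. The locus was chosen from these lists because its IDR peaks cluster, so signal, rank, IDR membership and the number of peaks are given as a description, with no test.

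All samples formed a single group, UNC-62 L1, with 2 biological replicates of whole larvae of mixed sex at the first larval stage. Per the labels, the strain was OP600, which carried the unc119(ed3) allele and the transgene wgIs600, in which unc-62 is fused to TY1, EGFP and FLAG tags and unc119 is included. Both replicates share these alleles, and a strain without the transgene and the control libraries were not analysed here. Whole larvae pool all tissues, so a site bound in fewer cells and a site bound more weakly in each cell cannot be told apart.

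UNC-62 is the worm protein of the Meis class of homeodomain factors, which bind DNA together with partners of the Pbx class and with Hox proteins and pattern cells along the body. The zfp-1 gene encodes the worm relative of mammalian AF10, a chromatin protein whose longer form carries PHD zinc fingers that recognise histone tails. ZFP-1 acts with DOT-1.1, a histone methyltransferase related to mammalian DOT1L, and is known from work on gene silencing by small RNAs and on stress resistance. The neighbouring ztf-1 gene is annotated as protein-coding and is named for a zinc finger, and its role is not described here.

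The 3 IDR peaks lay in introns of zfp-1, and none overlapped ztf-1. Sequence is shown for these because they are the strong sites of the locus. Each line gives the 201 bases centred on the summit, 5′ to 3′ on the plus strand, which is the strand of zfp-1, from the RefSeq copy of WBcel235, the sequence of ce11. Peak 1 is chrIII:8795784-8795984, peak 2 is chrIII:8800104-8800304 and peak 3 is chrIII:8801988-8802188. Capitals mark matches on either strand to GAGAGA (the unit of the GAGA repeat), to GATAAG (the motif of GATA factors) or to GACGCA, the hexamer that led an earlier ranking in these data.
peak 1: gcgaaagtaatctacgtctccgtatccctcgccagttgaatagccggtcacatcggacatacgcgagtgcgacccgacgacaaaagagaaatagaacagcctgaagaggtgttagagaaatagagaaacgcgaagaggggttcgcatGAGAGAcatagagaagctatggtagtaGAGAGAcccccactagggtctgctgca
peak 2: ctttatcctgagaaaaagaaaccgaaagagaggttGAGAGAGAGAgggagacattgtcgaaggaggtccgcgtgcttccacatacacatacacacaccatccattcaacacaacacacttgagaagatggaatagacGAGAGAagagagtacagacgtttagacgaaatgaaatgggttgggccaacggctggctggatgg
peak 3: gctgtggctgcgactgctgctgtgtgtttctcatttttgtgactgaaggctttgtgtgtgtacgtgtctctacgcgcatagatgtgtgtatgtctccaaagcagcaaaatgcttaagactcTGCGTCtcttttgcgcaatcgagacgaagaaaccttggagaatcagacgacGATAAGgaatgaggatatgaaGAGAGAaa

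Peak 2 (8800036 to 8800371) was the strongest entry of the locus, with a signal value of 48.8 and rank 35 in the pooled list. The signal value is the authors' own measure of enrichment for each entry, on a scale that is not given in the sources used here. Peak 1 (8795716 to 8796051) had a signal of 43.3 and rank 49. Peak 3 (8801920 to 8802255) had a signal of 37.4 and rank 92. Peaks 1 and 2 therefore lay above the median of all IDR peaks, 40.6, and peak 3 lay below it. Peak 3 was the weakest of the locus peaks inside the IDR list of 119, whose weakest peak had a signal of 35.0. The strongest locus entry outside the list had a signal of 21.8 and rank 859. The IDR list held 0.397% of all pooled entries and was made of those with the highest signal. Membership in it does not by itself show similar ranks in both replicates, and 112 of its 119 peaks were listed in both.

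**Figure D1:**
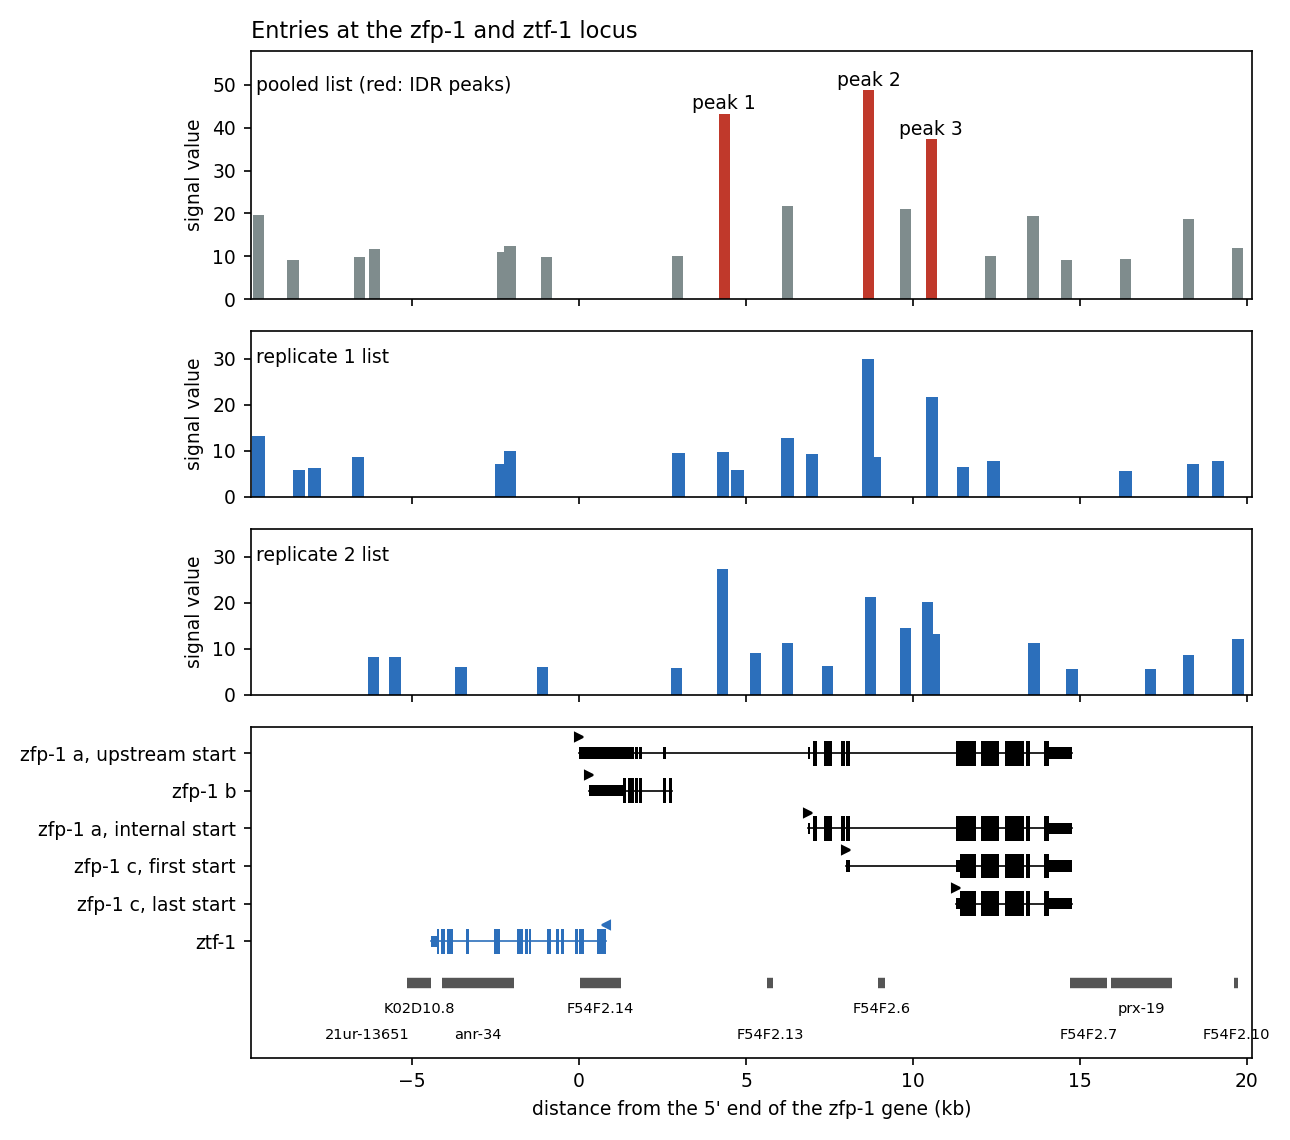
Signal value of each entry (vertical axes, no stated unit) against distance from the 5′ end of zfp-1 in kb, for the pooled list (IDR peaks in red), replicate 1 and replicate 2, above the exons of chosen zfp-1 transcripts and of ztf-1 (tall boxes, coding; short boxes, untranslated; arrowheads, transcript starts) and grey bars for the other annotated genes (21ur-13651 is too short to be visible). The 3 red bars, with signals of 43.3, 48.8 and 37.4, stand in the 2 longest introns of zfp-1, and no list has an entry over the start of ztf-1.

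The other 16 entries were weaker and fell into separate ranges of signal. Of these, 5 had signals from 18.8 to 21.8 and ranks from 859 to 1997. The remaining 11 had signals from 9.05 to 12.4 and ranks from 12857 to 29982, and no locus entry lay between 12.4 and 18.8. The deposited −log10 q-value was 2.54 at each of the 3 IDR peaks, 0.201 to 0.408 at the 5 intermediate entries and 0.0251 to 0.0624 at the 11 weakest. The median over all 19 entries was 11.9, the same to 3 digits as the median of all 30000 pooled entries. These equal medians hide the separate ranges, as 8 of the 19 entries were within the first 2000 of the 30000 ranks. That limit was set after the values were seen, at a locus chosen for its peaks. The 11 weakest entries were ordinary members of a list of fixed length, and presence in that list is not by itself evidence of binding.

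**Figure D2:**
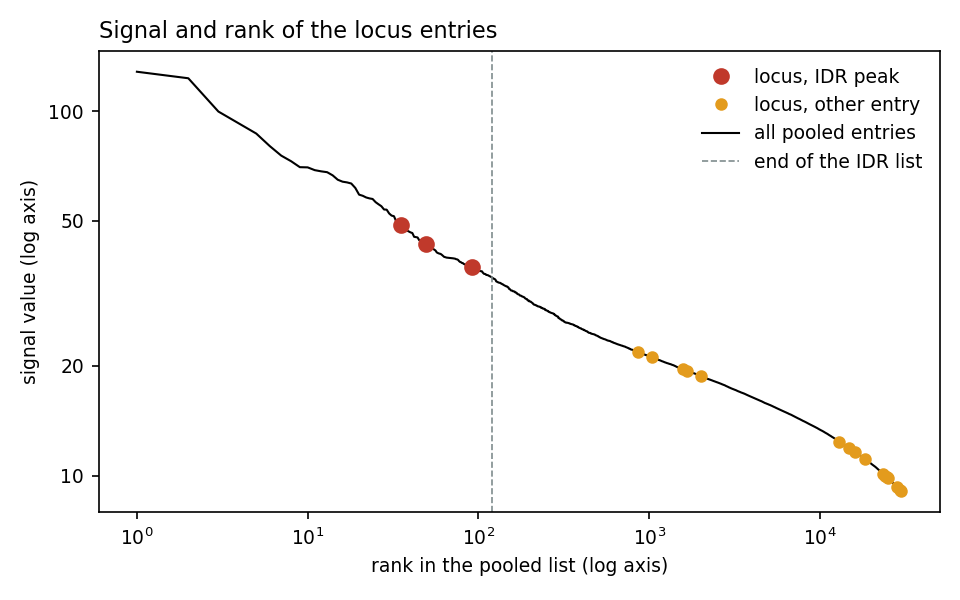
Signal value against rank in the pooled list, both on log axes, for the locus entries (red, IDR peaks; orange, other entries) and for all pooled entries (line), with the end of the IDR list as a dashed line. The 3 red points lie at ranks 35, 49 and 92, and the next locus entry is at rank 859.

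The density of entries was also described. With summits counted, the window held 18 entries, against a median of 9 in 3429 genome tiles of the same length (quartiles 6 and 11, highest 23). Of the tiles, 59 (1.72%) held at least as many, and 2 (0.0583%) held at least 3 IDR summits. These shares place a locus that was picked for its peaks and test nothing.

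The zfp-1 gene (WBGene00006975; plus strand, 8791535 to 8806305) and the ztf-1 gene (WBGene00018833; minus strand, 8787092 to 8792351) run away from each other from overlapping 5′ ends, and they share 817 bp. The sequence of zfp-1 outside this overlap held 9 entries with signals from 9.11 to 48.8 and a median of 21.1. The sequence of ztf-1 outside it held 3 entries, with signals of 11.1, 12.4 and 9.86. The shared sequence held 0 entries. Beyond the 3′ end of ztf-1 lay 4 entries with a highest signal of 19.6, and beyond that of zfp-1 lay 3 with a highest signal of 18.8. All entries of the locus above 20 were thus inside zfp-1.

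All 3 IDR summits lay in the longest introns of zfp-1. Transcript F54F2.2a.2 has 13 introns with a median length of 173 bp. Its intron 4, of 4254 bp, and its intron 9, of 3179 bp, are the longest, and the next longest measures 605 bp. Together these long introns make up 50.3% of the gene and held 6 of its 9 summits. These 6 include all 3 IDR summits, for which the locus was chosen. The count was not tested against their share of its length. Intron 4 held peak 1, the entry of rank 859 and a weak entry of rank 23935, whose summit is annotated as an untranslated exon of another transcript. Intron 9 held peaks 2 and 3 and, between them, the entry of rank 1041. The summits of peaks 2 and 3 were 1884 bp apart, and those of peaks 1 and 2 were 4320 bp apart. Of all 19 entries, 9 had summits in introns of protein-coding genes, against 36.9% of all pooled entries. Among IDR peaks an intron was the less common place, with 20.2% or 24 of 119, and zfp-1 alone contributed 3 of these 24.

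The annotation gives zfp-1 11 transcripts with 10 distinct starts, and ztf-1 1 transcript. Of the 11 zfp-1 transcripts, 10 are coding and differ in which protein they encode, and F54F2.2d is annotated as non-coding. Form a has 867 residues, and its 7 transcripts use 6 starts but the same first coding base (8798555). Form c has 635 residues, and it is the carboxy-terminal part of form a without the first 232 residues. Form b has 211 residues, and its transcript ends at 8794319, upstream of all 3 IDR summits. Intron 4 therefore divides the upstream exons, which are untranslated in form a, from all coding exons of form a, and intron 9 follows the exons for the first 189 residues.

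Relative to these starts, each IDR summit lay in the body of some transcripts and upstream of others. Peak 1 was 1475 bp downstream of the start of F54F2.2a.7, its nearest, and 2514 bp upstream of that of F54F2.2a.1. Peak 2 was 671 bp downstream of the start of F54F2.2c.1, which encodes form c, and 1806 bp downstream of that of F54F2.2a.1. Peak 3 was 731 bp upstream of the start of F54F2.2c.2, the last start of the gene, which also encodes form c. From the 5′ end of the gene record the summits were 4349, 8669 and 10553 bp downstream. Distances to the gene record alone thus give no sign of the internal starts that lie within 1 kb of peaks 2 and 3. The start of F54F2.6, a short protein-coding gene on the minus strand inside intron 9 (8800486 to 8800701), was nearer to peak 2, at 497 bp, but that summit lay past the 3′ end of F54F2.6.

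**Figure D3:**
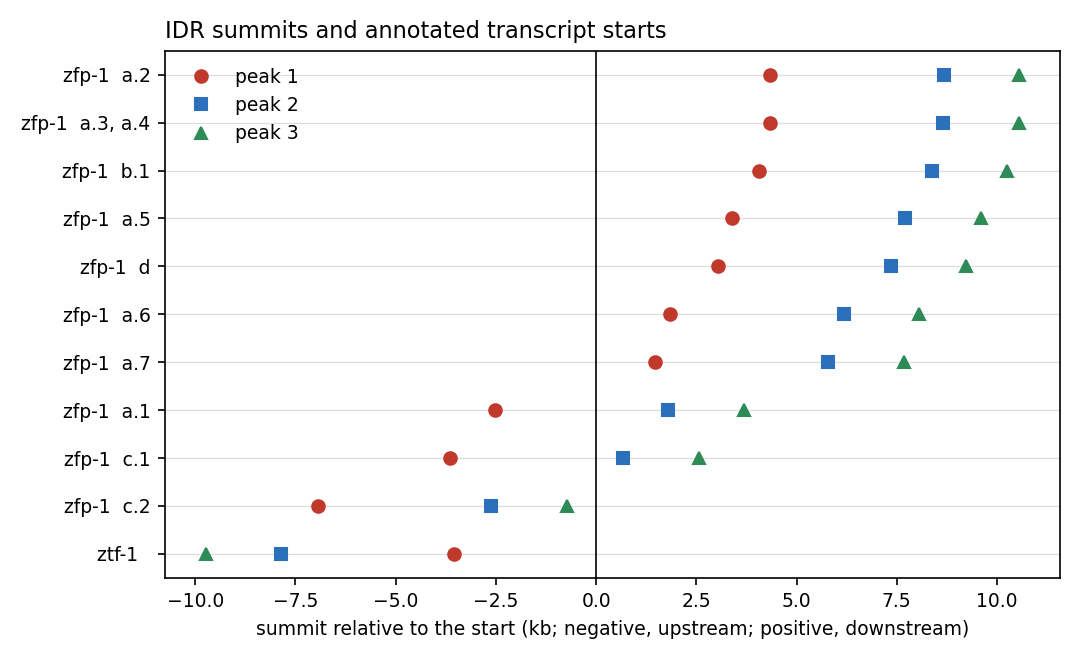
Position of each IDR summit relative to every annotated transcript start of zfp-1 and ztf-1, in kb along the direction of transcription (negative, upstream; positive, downstream; rows are starts, labelled by transcript, and symbols are peaks). Peak 1 lies between the starts a.7 and a.1, peak 2 lies 671 bp past c.1, peak 3 lies 731 bp ahead of c.2, and all 3 are at least 3533 bp upstream of ztf-1.

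The start of ztf-1 and most upstream starts of zfp-1 had no entry. In the pooled list, 3579 bp around the ztf-1 start (8790724 to 8794302) was free of entries, and this stretch held 7 of the 11 distinct starts of both genes. The free stretch was 4683 bp in replicate 1 and 3686 bp in replicate 2, so no list had an entry at the shared 5′ region. A single pooled summit was the nearest to both 5′ ends, at 1795 bp for ztf-1 and 979 bp for zfp-1. It belonged to a weak entry in a ztf-1 intron with a signal of 9.86 and rank 24862. Such a stretch is common: 27.6% of the stretches between neighbouring pooled entries were at least as long (median 1794 bp). Likewise, 49.1% of the 19973 protein-coding genes had a pooled summit within 1 kb of the 5′ end, so its absence at ztf-1 does not set that gene apart.

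A summit within 300 bp of a transcript start of any protein-coding gene was found for 1 of the 19 entries, against 16.9% of all pooled entries. This was a weak entry (8794303 to 8794638) with rank 23935, whose summit was 62 bp downstream of the F54F2.2a.7 start. The pooled list had no summit within 500 bp of the starts of F54F2.2a.1, F54F2.2c.1 or F54F2.2c.2. Replicate 1 alone listed entries 115 bp from the first of these, with a signal of 9.36 and rank 5537, and 215 bp from the last, with a signal of 6.46 and rank 18824. Neither met a pooled entry, and replicate 2 had none within 500 bp of these starts.

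The replicates put the 3 peaks in different orders. At peak 1, replicate 1 had a signal of 9.73 and rank 4645, and replicate 2 had a signal of 27.4 and rank 79. At peak 2, replicate 1 had a signal of 30.0 and rank 7, and replicate 2 had a signal of 21.3 and rank 187. Peak 1 was thus the strongest site of the locus in replicate 2 and the sixth strongest in replicate 1, where peak 2 led. At peak 3, replicate 1 had a signal of 21.6 and rank 24, while replicate 2 had overlapping entries of 20.1 and 13.2 that ranked 239 and 1244. Signal values were compared only within a list, since nothing in the sources puts the lists on a common scale.

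Peaks 2 and 3 ranked better in replicate 1 than in replicate 2, and peak 1 ranked better in replicate 2. Of the 112 IDR peaks listed in both replicates, 34 (30.4%) ranked better in replicate 1. In a top list as long as the IDR list, replicate 1 held peaks 2 and 3, and replicate 2 held peak 1. Each peak was therefore in the top list of a single replicate. Of all 119 IDR peaks, 41 were in the replicate 1 top list and 87 were in that of replicate 2. Most IDR peaks were thus missing from at least 1 of these top lists, so such an absence does not set the locus peaks apart. The pooled list was made from both replicates, so the replicate lists are not independent of the choice of this locus.

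**Figure D4:**
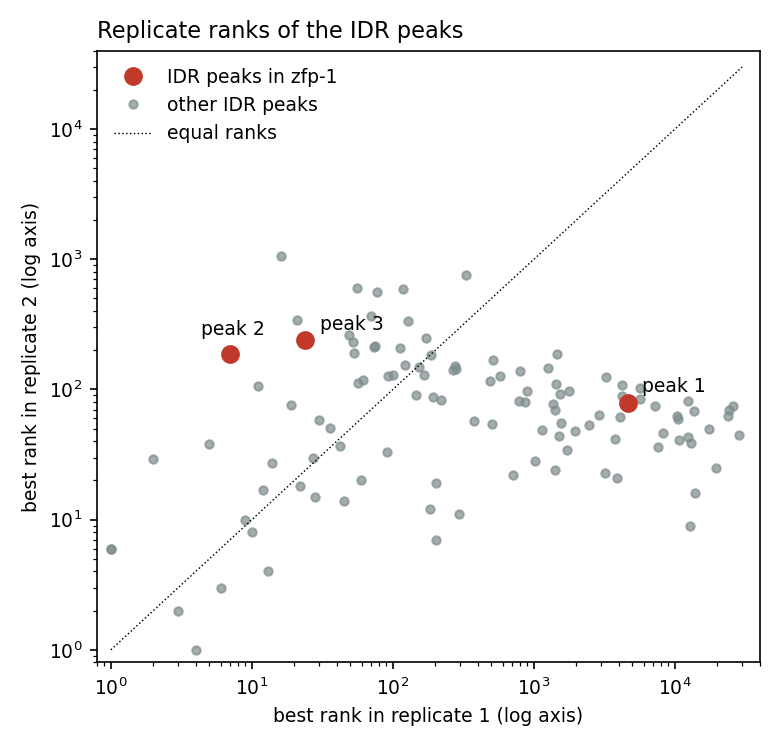
Best rank in replicate 2 (vertical axis) against best rank in replicate 1 (horizontal axis), both on log axes, for the 112 IDR peaks listed in both (red, the peaks in zfp-1; grey, the others), with a dotted line at equal ranks. Peaks 2 and 3 lie above the line, at replicate 1 ranks 7 and 24, and peak 1 lies below it, at replicate 1 rank 4645.

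Summit positions were compared between lists at the 6 entries of the first 2000 ranks that met both. At peak 1 both replicate summits lay 45 bp upstream of the pooled summit. At peak 2 the strongest entries were shifted by -17 bp in replicate 1 and 49 bp in replicate 2. At peak 3 replicate 1 was shifted by 14 bp, and the replicate 2 entries lay on either side, at -121 and 97 bp. At the rank 859 entry in intron 4 the shifts were -3 and -2 bp, with signals of 12.8 in replicate 1 and 11.2 in replicate 2. At the rank 1570 entry on the edge of the window they were -7 bp in replicate 1 and -160 bp in replicate 2. At the rank 1997 entry upstream of prx-19 they were 121 bp in replicate 1 and 0 bp in replicate 2. For the strongest replicate entry at each, shifts over 100 bp thus occurred at 3 of the 6, peak 3 among them. The share of all pooled entries with such shifts was not computed, so this count does not set the locus apart.

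Of the 19 entries, 7 met an entry of both replicate lists (36.8% against 30.4% of all pooled entries), 6 met replicate 1 only, 6 met replicate 2 only and 0 met neither. Among the 8 entries within the first 2000 ranks, a limit set after the values were seen, 6 met both lists, against 1631 of all 2000 entries at those ranks. The exceptions met replicate 2 only. They were the entry between peaks 2 and 3 (8801142 to 8801477; signal 21.1, replicate 2 rank 829) and an entry in the last intron of zfp-1 (8804964 to 8805299; signal 19.4, replicate 2 rank 2691). Beyond the first 2000 ranks, 1 of 11 met both lists. Over all 30000 pooled entries 9129 met both, and 1631 of these were within the first 2000 ranks. The window held 19 entries of replicate 1 and 18 of replicate 2, and 5 in each met no pooled entry, with a best rank of 5537 in replicate 1 and 6828 in replicate 2.

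The other genes of the window carried no IDR peak in their own sequence. Upstream of prx-19, which encodes a factor for peroxisome assembly, the nearest summit was 509 bp away (8809636 to 8809971), with a pooled signal of 18.8, a replicate 1 rank of 14731 and a replicate 2 rank of 8741. The entry inside prx-19 was weak, with a signal of 9.33 and rank 28160. The entry at the non-coding gene F54F2.10 had a signal of 11.9 and a summit at 122 bp from where that gene starts. Summits with signals of 9.90 and 11.6 lay 240 and 207 bp from the piRNA gene 21ur-13651. The antisense gene anr-34 overlapped both entries of signal 11.1 and 12.4 inside ztf-1. The non-coding gene F54F2.13, in intron 4 of zfp-1, was 438 bp from the rank 859 summit. The protein-coding genes F54F2.14, which lies over the shared 5′ region, F54F2.7 and K02D10.8 had no summit in their own sequence. The entry of signal 19.6 at the edge of the window overlapped it by its last bases only, and its summit lay outside.

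The windows of the IDR peaks printed above shared a GAGA repeat. GAGAGA was searched within 100 bp of each summit on both strands, as were the other motifs, and overlapping matches were counted separately. It occurred 7 times in these 3 windows, all on the plus strand, with 2 matches in peak 1, 4 in peak 2, of which 3 overlap, and 1 in peak 3. The same motif was in 51 of all 119 IDR windows (42.9%) and in 10.8% of all pooled windows. Of the 16 locus windows outside the IDR list, 4 held it, the rank 859 window among them with 3 matches. The 3 windows were also rich in G and C, at 50.7%, 47.3% and 45.8%, against a median of 44.3% in IDR windows and 32.3% in all pooled windows. The part of base composition in the motif count was not tested.

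None of the 3 IDR windows held the Meis hexamer TGACAG, the motif of the UNC-62 class. It was in 6.4% of all pooled windows and 12.6% of IDR windows, so its absence from 3 windows is usual, and it says only that these letters are not in these windows. In the locus it was in 2 weak windows, of signals 12.4 and 9.11. The Pbx-Hox motif TGATTGAT was in 0 of the 19 locus windows, against 1.43% of all pooled windows and 4.20% of IDR windows. Peak 3 held a match to GATAAG 72 bp downstream of its summit and a match to GACGCA on the minus strand 21 bp downstream. GATAAG was in 5 of the 19 locus windows, against 6.87% of pooled and 5.88% of IDR windows. GACGCA was in 1 locus window, against 4.37% of pooled windows and 31.1% of IDR windows, a difference already known when the motif was listed. All bases of the IDR entries lay in sequence that occurs once: 100% of their 31-base words were unique in the genome. The lowest share in the locus was 96.7%, at the entry in the last intron of zfp-1.

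Clusters of this size were rare among genes. Counted from 5 kb outside each gene, 1.76% of protein-coding genes had an IDR summit, and 4 genes (0.02%) had at least 3, in 3 loci. The zfp-1 locus, which includes F54F2.6, had 3 summits across 6204 bp and a summed signal of 129. The most similar were pqn-41, with 4 summits across 5225 bp of introns and a summed signal of 237, and unc-62, with 3 summits across 13051 bp and a summed signal of 202. All 3 zfp-1 summits and all 4 pqn-41 summits were in introns, while 0 of those at unc-62 were, and unc-62 is also the gene on the transgene. With the same window around it, ztf-1 had 1 IDR summit, peak 1, which lay 3533 bp upstream of its start.

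Genes related to zfp-1 and ztf-1 had no IDR summit in such windows. The 5 DOT1-type methyltransferase genes had 0, and dot-1.1 had the highest signal of that list, 28.1, from 12 pooled entries. A pooled summit lay at 140 bp from where dot-1.1 starts, and dot-1.1 was the only 1 of the 5 with a summit within 1 kb. Of all protein-coding genes, 49.1% had one. Of the ZFP-1 pathway genes, daf-16, a forkhead transcription factor of insulin signalling, had 19 entries with a highest signal of 31.2, and pdk-1, a kinase of the same pathway, had 7 with a highest signal of 21.5. The median over all protein-coding genes was 3 entries. Longer genes have longer windows, and the part of gene length in these counts and highest signals was not tested. Of the 24 other ztf genes 0 had an IDR summit, and of the 9 phf genes, named for a PHD finger, 0 had one. The highest signal of the other ztf genes was 32.4, at ztf-7. Among the phf genes phf-15 led with 24.0, and their median highest signal was 15.9, against 15.1 for all protein-coding genes with an entry. With 1.76% of genes having an IDR summit, 0 is a usual count in lists of this length.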

How the data were processed

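Peak lists of UNC-62 ChIP-seq in L1 larvae were used as deposited on ce11; those on ce10 were not used, since coordinates were not converted. Per the deposited README, the replicate lists came from each replicate and a control, the pooled list from both replicates, and the IDR list from all of these. How reads were aligned, how peaks were called and where the IDR list was ended is not given in the sources used here. GEO labels gave a size range of 150 to 350 bp. The deposited signal value ranked entries, and the deposited −log10 q-value was used for description and in an alternative ranking. Lists hold no read counts, so depth is unknown. Replicate and pooled lists held 30000 entries, 370 bp wide in replicate 1 and 336 bp elsewhere. Ranks followed signal within each list. Summits were interval centres.

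Genes and transcripts came from Ensembl release 115, and sequence from RefSeq WBcel235. Entries met where intervals shared 1 bp. A summit's feature was that of protein-coding genes, coding exon before untranslated exon before intron. The motifs were the Meis hexamer TGACAG, the Pbx-Hox motif TGATTGAT, the GATA motif GATAAG, the repeat unit GAGAGA and the hexamer GACGCA, which led an earlier ranking. With 1 group and a locus chosen by its peaks, no test was run. The members, motifs and gene lists were chosen with earlier results of these data known. Named were the genes of the window, loci with as many IDR summits, both ZFP-1 pathway genes, and the strongest member of each other related list. Functions were tested on simulated data. Python 3.11.15, numpy 2.4.6, pandas 2.3.3 and matplotlib 3.10.9 were used.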

Additional observations from a re-analysis of the deposited data

How the results depend on the processing

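Of 32 alternatives, 19 left a count within 1.5 times, or a value within the spread between replicates, and 13 did not. The alternatives for peak ranks were the replicate ranks themselves, so the spread between replicates is not an independent measure for them. The number of pooled entries was 12 with a flank of 0 kb. With 1 replicate left out, the entries counted were those of the other replicate's own list, 19 in replicate 1 and 18 in replicate 2. These were not pooled entries, and 5 in each list met no pooled entry. The number of IDR peaks was 3 with every flank, which could not differ because all 3 lie inside zfp-1. It was also 3 when ranked by −log10 q, a value that was 2.54 at each of the 3 and so does not order them. It was 2 above the median signal. In the top list of a single replicate it was 1 to 2: replicate 2 alone gave 1 and replicate 1 alone gave 2. With 1 replicate list required, 13 entries met replicate 1 and 13 met replicate 2. Summits near a start numbered 2 within 500 bp, 4 with non-coding genes included and 0 with gene records only. The median signal was 11.4 without the IDR peaks and 8.66 to 8.83 in the replicate lists, which have another scale. The Meis hexamer was in 0 windows within 50 bp of the summit. With 1 replicate left out, ranks were 79 to 4645 for peak 1, 7 to 187 for peak 2 and 24 to 239 for peak 3. The causes were not tested. No paired analysis was possible because there was a single group. Unknown depth limits any comparison of strength between replicates, and no control list was analysed here.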
